A study of Mus musculus with 16 samples.

Results

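The genes described here are 10 members of the AP-1 and immediate early group: the Fos family (Fos, Fosb, Fosl1, Fosl2), the Jun family (Jun, Junb, Jund), and Atf3, Egr1 and Ier2. They were chosen by name, and all 10 were found by Ensembl identifier among the 55305 gene rows that both deposited tables share. AP-1 is a dimer of a Jun protein with a Fos, Jun or ATF partner that binds a short DNA site. Immediate early genes are transcribed within minutes of a growth factor, wound or stress signal, from factors already present in the cell, and their messages are short-lived. In skin, AP-1 members take part in keratinocyte proliferation, differentiation and wound repair, and the same genes are known to respond to the enzymatic dissociation that precedes cell sorting.

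Bulk RNA was sequenced from C57BL/6 mice in 16 libraries, to ask how the eKO genotype of GRK2, a kinase that phosphorylates active G-protein-coupled receptors, changes skin and its hair follicles. Back skin gave 5 control and 5 eKO libraries, from mice labelled as 8 months old, and was lysed intact. The other 6 libraries, 3 control and 3 eKO, were made from sorted stem cells of the hair follicle bulge (HFSC below), gated as CD34+ and α6-integrin+. HFSC samples are labelled as 18 months old, whereas the series design text gives 8 months, so the age of these mice is not settled here. The genotype is labelled GRK2 eKO, an abbreviation that is not spelled out; the promoter or Cre line behind it, the sex of the mice and the preparation batches are not given in the sources used here. Nothing says whether each library is a separate mouse, so the p-values below measure the spread between these libraries.

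Depth, as recovered reads over gene rows, ran from 8213632 to 16383486 per library in skin and from 6428488 to 9387378 in HFSC. Grk2 itself did not pass the test in either tissue (limma log2 fold change -0.22, SE 0.10, adjusted p 0.343 in skin and -0.24, SE 0.23, adjusted p 0.501 in HFSC), and its libraries overlapped between genotypes, so reads per gene do not check the genotype labels. In CPM, the reads of a gene scaled to a library of 1000000 recovered reads, bulge markers summed to 25536 to 25883 in control HFSC and 2867 to 4702 in control skin. Fibroblast markers summed to at most 23.0 in any HFSC library, with Lum and Dpt at 0 in all 6. Several marker sums moved with genotype in HFSC. From control to eKO, the 9 endothelial markers went from 2.18 to 6.54 up to 148 to 181 CPM, the 6 sebaceous markers from 317 to 341 up to 1591 to 1741, and the 6 suprabasal markers from 363 to 639 up to 2300 to 2374. The 10 hair matrix and shaft markers went from 88.7 to 102 up to 330 to 359, and the 8 leukocyte markers from 45.6 to 52.3 up to 178 to 303. The 4 Y-linked genes went the other way, from 349 to 366 down to 98.9 to 118. So did the bulge markers, from 25536 to 25883 down to 21079 to 23727. The melanocyte markers went from 28.6 to 37.5 down to 20.2 to 24.5, and the fibroblast markers from 19.95 to 23.02 down to 11.98 to 18.86. Each of the 6 sebaceous, 7 of 8 tested endothelial, 7 of 8 hair matrix and 4 of 5 suprabasal markers was called higher and all 4 Y-linked genes lower by limma. Over all genes tested in HFSC, limma called 10.7% higher and 8.74% lower. Vwf, Emcn and Krt35 were at 0 in all control HFSC libraries. Other markers called higher had control HFSC means near 0. These were 0.496 CPM for Cdh5, 1.00 for Plvap, 0.199 for Kdr, 0.101 for Esam and 0.802 for the sebaceous marker Cidea. All of these calls are within the counts above. Markers this low in the controls were tested only through the eKO libraries, so they could only be called higher. The leukocyte markers were mixed, with 2 higher and 1 lower of 5, as were the bulge markers, with 1 higher and 1 lower of 10. Of 3 tested fibroblast markers 1, Dcn, was called higher and 0 lower, and of 3 tested melanocyte markers 0 were called. Dcn had a mean of 0.149 CPM in control HFSC, so it too could only be called higher. In skin the Y-linked genes summed to 0.171 to 246 CPM in control libraries and 0.0610 to 231 in eKO libraries. Sex is not labelled, and in HFSC a difference in sex could not be told apart from genotype. The part of these differences in the results below was not tested. In bulk RNA, fewer cells of a type and less RNA per cell cannot be told apart.

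The promoters of Fos, Jun and Junb are shown because these genes changed with genotype in HFSC in opposite directions. Each is the 250 bases before the RefSeq start on GRCm38.p6, on the strand of the gene: chr12:85473640-85473889 (plus) for Fos, chr4:95052223-95052472 (minus) for Jun and chr8:84978749-84978998 (minus) for Junb. Capitals mark the matches to the motifs searched.

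Fos: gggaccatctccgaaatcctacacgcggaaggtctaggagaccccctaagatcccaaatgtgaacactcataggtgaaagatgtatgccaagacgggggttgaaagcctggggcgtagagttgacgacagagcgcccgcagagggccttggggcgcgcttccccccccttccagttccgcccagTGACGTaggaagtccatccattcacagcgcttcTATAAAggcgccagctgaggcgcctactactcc

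Jun: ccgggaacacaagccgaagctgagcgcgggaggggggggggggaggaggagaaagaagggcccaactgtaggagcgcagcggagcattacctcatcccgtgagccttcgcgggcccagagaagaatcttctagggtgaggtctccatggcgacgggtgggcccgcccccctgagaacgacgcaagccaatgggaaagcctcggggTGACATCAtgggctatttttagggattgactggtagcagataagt

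Junb: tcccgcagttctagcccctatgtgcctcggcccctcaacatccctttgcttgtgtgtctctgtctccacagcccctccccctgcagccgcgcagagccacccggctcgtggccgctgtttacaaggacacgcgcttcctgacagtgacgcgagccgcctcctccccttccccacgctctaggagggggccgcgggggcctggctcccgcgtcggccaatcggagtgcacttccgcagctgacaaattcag

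Both strands were searched for TGACGT (the core of the cyclic AMP response element), TGACATCA (the variant site known from the Jun promoter), TGACGTCA (the full response element, in which TGACGT lies), the AP-1 site TGANTCA, the CArG box bound by serum response factor, and TATAAA. Fos held TGACGT 66 to 61 bases before its start and TATAAA 33 to 28 bases before it. Of all 32851 RefSeq windows of this length, 6.47% held TGACGT and 12.4% held TATAAA. Jun held TGACATCA 45 to 38 bases before its start, a site present in 2.93% of windows. Junb held none of the 6 motifs in this window. The other 3 motifs were found in no member's window, and their shares of all windows were 1.55% for TGACGTCA, 6.75% for TGANTCA and 1.47% for the CArG box. Of the 10 members, 7 had a window: Fosb, Fosl2 and Jund held no match, and Atf3 held TGACGT on the opposite strand, 8 to 3 bases before its start. Egr1, Ier2 and Fosl1 had no entry. A match describes these letters only.

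Levels in the sorted cells against intact skin came first, in CPM of recovered reads, since the 2 tables were normalised separately. The control groups differ in sorting, RNA kit, labelled age and cell makeup together, and these cannot be told apart, so the difference is described with no test. Among the members, 4 were at least 2-fold higher in control HFSC than in control skin with no overlap between libraries, 4 were at least 2-fold lower, and Fos and Fosb overlapped. Over all 17039 genes compared, 21.4% were higher and 30.1% lower by the same rule, and 68.7% did not overlap.

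The higher members were Ier2, Egr1, Jun and Junb. Ier2, a nuclear protein of the early response, stood at 335, 357 and 379.7 CPM in control HFSC and at 60.3 to 88.5 (median 74.9) in control skin, a ratio of 4.93. Egr1, a zinc-finger transcription factor, stood at 557, 521 and 591 against 127 to 292 (median 167), a ratio of 2.97. The lowest HFSC library exceeded the highest skin library for each. Jun stood at 459.5, 400.1 and 411 against 161 to 215, a ratio of 2.22, and Junb, which can oppose Jun at some promoters, at 544, 507 and 546 against 214 to 284, a ratio of 2.21. The HFSC and skin libraries did not overlap for either gene.

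The lower members were Jund, Fosl1, Atf3 and Fosl2. Jund, the Jun family member that most tissues keep at a steady level, stood at 14.4, 16.6 and 21.2 CPM in control HFSC and at 107 to 165 (median 129.9) in control skin, which is 7.38-fold lower. Fosl1, which encodes FRA-1, had 2, 1 and 4 recovered reads in the HFSC libraries, or 0.298, 0.156 and 0.594 CPM, against 0.683 to 16.4 (median 1.63) in skin. That is 17.7-fold lower on means, and 10.4-fold without skin control replicate 3 or 27.3-fold without HFSC control replicate 3. The counting error is large beside so few reads. Atf3, a stress-induced ATF family factor, was 3.03-fold lower (21.1, 22.9 and 19.0 against 27.6 to 155), and Fosl2, which encodes FRA-2, was 2.01-fold lower (168 in each HFSC library against 274 to 481). Atf3 lost its place on the list without skin control replicate 2, where it was 1.95-fold lower, and Fosl2 without skin control replicate 4.

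Fos and Fosb were lower on average in the sorted cells but not separated from skin. Fos was at 49.4, 46.8 and 52.9 CPM in control HFSC, and the 5 control skin libraries ran from 32.1 to 356 (median 63.9), a ratio of means of 0.399. Fosb ran from 3.27 to 19.7 in HFSC and from 9.99 to 141 in skin, a ratio of 0.204. The high means of skin rest on skin control replicates 1 and 2 for Fos (356 and 135) and on replicate 1 for Fosb (141). Without skin control replicate 1 the ratio was 0.746 for Fos and 0.338 for Fosb, and without HFSC control replicate 1 it was 0.127 for Fosb. The scaling mattered for the higher members. Trimmed-mean scaling gave Jun and Junb ratios of 1.95, and the deposited values, normalised separately per table, left Ier2, at 2.86, as the only member 2-fold higher. Relative to 10 reference genes all 4 were past 2-fold, with Ier2 at 5.90, but only Jund stayed on the lower list.

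**Figure D1:**
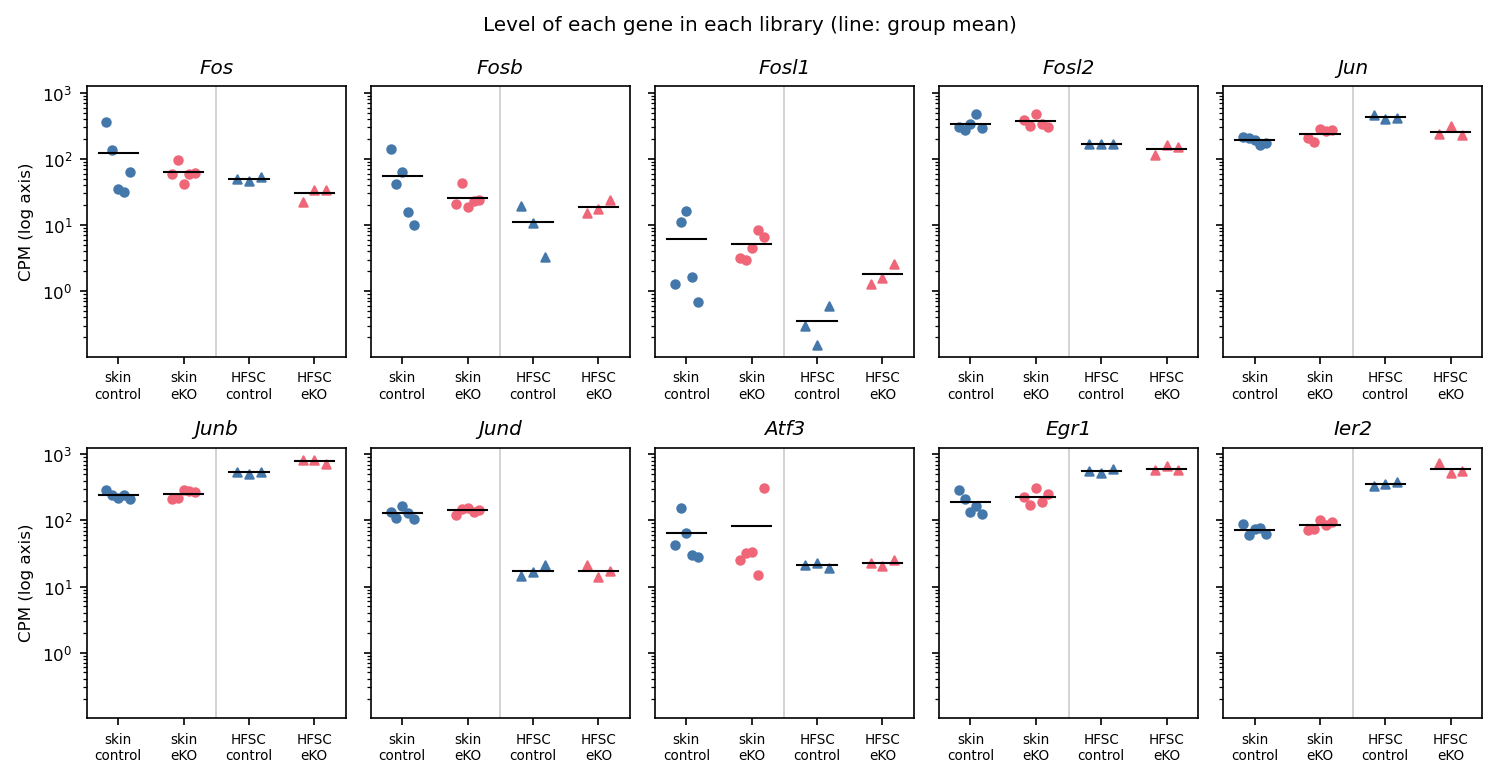
CPM of recovered reads (log axis) of each gene in each library, circles for skin and triangles for HFSC, blue for control and red for eKO, with a line at the group mean. Jun, Junb, Egr1 and Ier2 sit higher in control HFSC than in control skin, Jund and Fosl1 sit lower, and Fos and Fosb in control skin spread from 32.1 to 356 and from 9.99 to 141.

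**Figure D2:**
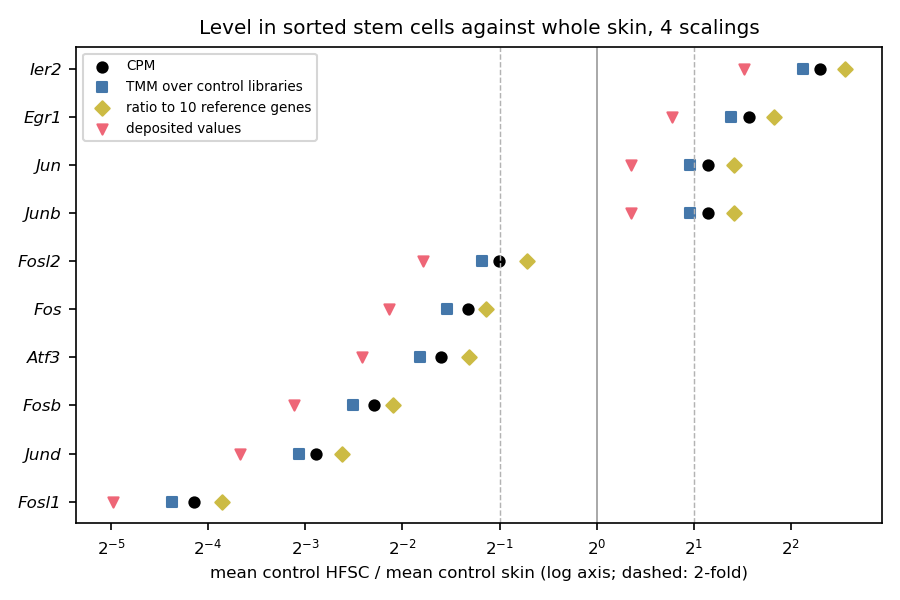
Ratio of the control HFSC mean to the control skin mean (log axis) of each gene under 4 scalings, with dashed lines at 2-fold. Ier2 is past 2-fold under all 4, from 2.86 to 5.90, and Jun and Junb are between 1.28 and 2.66.

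The other early-response genes did not follow 1 direction between the tissues. Of 37 such genes, 35 could be compared. By the same rule 7 were higher and 15 lower in control HFSC, against 21.4% and 30.1% of all genes compared. Their median log2 ratio was -0.39, against -0.09 over all genes. The higher ones included Ccn2 and Ccn1, matricellular proteins, at 5.42-fold and 4.49-fold. At the other end, Dusp2 had only 0.0519 CPM in control HFSC. After it, the lower ones were led by Cebpb (28.3-fold), Ier5 (22.3-fold) and the phosphatase gene Dusp5 (17.5-fold). Of 14 heat-shock and chaperone genes, which also respond to handling of cells, Dnajb1 (4.54-fold) and Hspa1a (2.77-fold) were higher. Another 2 were lower, Hspa1b at 83.3-fold among them. The shares over all genes compared were again 21.4% higher and 30.1% lower. Hspa1a and Hspa1b are near-identical copies, so the split of reads between them is uncertain.

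Compared per length, as RPKM (CPM per kilobase of exon), the Jun family was made up differently in the 2 tissues. In control HFSC, Ier2 (235 ± 14.5, SD, n = 3) and Junb (231 ± 9.50) led the group and overlapped, then came Jun (133 ± 9.89) and Egr1 (124 ± 7.89), which also overlapped. Fos followed at 21.1 ± 1.30, then Fosl2 at 17.3 ± 0.0131, each separated from its neighbours. Jund (10.5 ± 2.08) and Atf3 (9.75 ± 0.895) overlapped, and Fosb (1.79 ± 1.31) and Fosl1 (0.172 ± 0.110) came last. In control skin, Junb (105 ± 12.5, SD, n = 5), Jund (77.2 ± 14.3) and Jun (59.9 ± 7.16) led, and each neighbour in the order overlapped the next. Jund made up 2.22 to 3.36% of the Jun family in control HFSC and 27.2 to 39.2% in control skin, with no overlap. The Jun family made up 90.1 to 90.3% of Jun and Fos family reads per length in control HFSC and 56.9 to 78.8% in control skin.

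**Figure D3:**
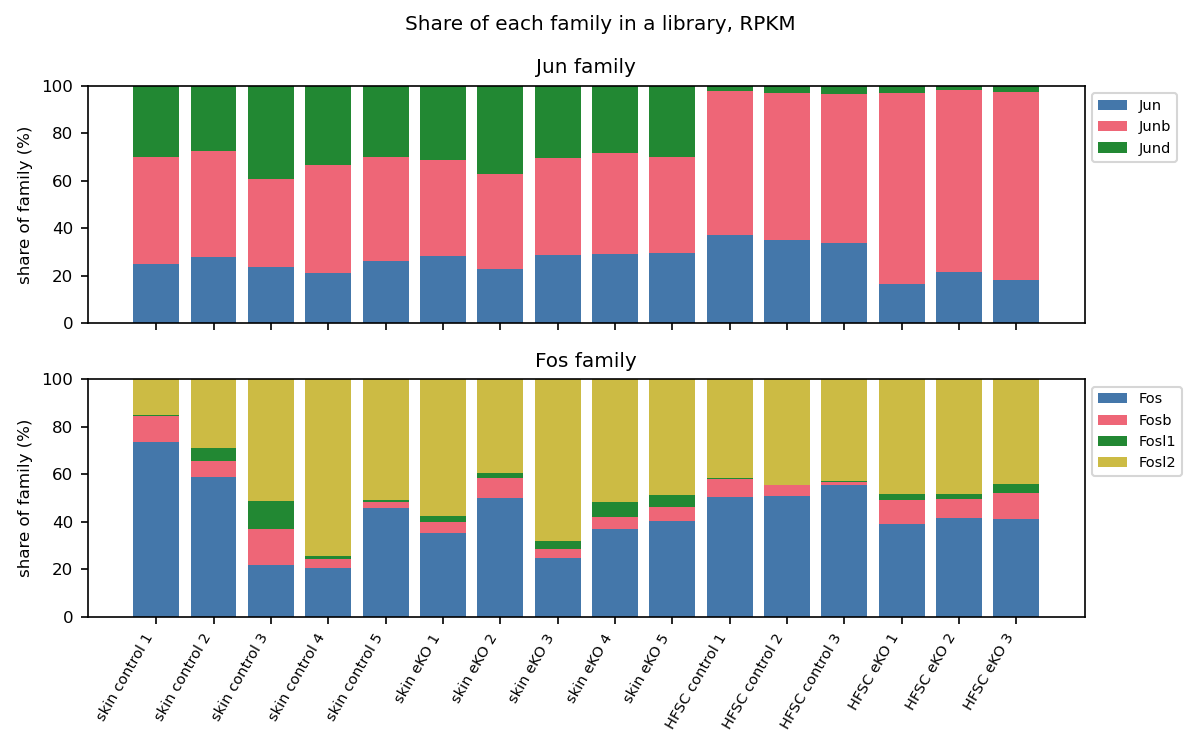
Share (%) of each gene in its family per library, from RPKM. Jund takes 27.2 to 39.2% of the Jun family in control skin and 2.22 to 3.36% in control HFSC, and Fos takes from 20.5 to 73.6% of the Fos family among the control skin libraries.

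In HFSC, 4 of the 9 tested members changed with genotype (limma, adjusted p under 0.05): Junb and Ier2 rose and Fos and Jun fell. Among all 13784 tested genes, 19.4% were called, 10.7% higher and 8.74% lower. All values from here are normalised read counts, the deposited unit, unless another is named. Libraries did not overlap between genotypes for 5 of the 9 members, against 36.3% of all tested genes.

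Fos, the partner that gives AP-1 much of its activating strength, was at 331, 317 and 356 in control HFSC and at 161, 241 and 238 in eKO HFSC. All 3 eKO libraries were below all 3 controls, with eKO replicate 1 the lowest. The log2 fold change was -0.67 (SE 0.19, limma adjusted p 0.0293). The call was lost without control replicate 1, 2 or 3 (limma adjusted p 0.0918, 0.0782 and 0.107) or without eKO replicate 1 (0.0644), while the direction held. Fosb, which encodes a full-length and a shortened Fos-like protein, was at 132, 71.5 and 22.0 against 108, 124 and 167. The groups overlapped through control replicate 1, and the log2 fold change of 1.12 (SE 0.50) did not pass (limma adjusted p 0.136). Without that library it was 1.69 with a limma adjusted p of 0.037, and without control replicate 3 it was 0.42 with a limma adjusted p of 0.463.

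Fosl2 was at 1124, 1135 and 1128 in control HFSC and at 818, 1147 and 1049 in eKO HFSC. The control libraries differed by little and the eKO libraries lay on both sides of them, with a log2 difference of -0.18 (SE 0.13, adjusted p 0.359 by limma). Fosl1 was below the filter for testing, with 2, 1 and 4 recovered reads in control libraries and 12, 10 and 17 in eKO libraries. Every eKO library held more than every control library, and with no filter the log2 difference was 2.08 (SE 0.81), which did not pass (limma adjusted p 0.133).

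Jun, the partner that pairs with Fos, was at 3078, 2706 and 2768 in control HFSC and at 1668, 2219.8 and 1587 in eKO HFSC. The highest eKO library was below the lowest control. Its log2 fold change was -0.66 (SE 0.12, limma adjusted p 0.0024). Junb was at 3644, 3430.3 and 3674 against 5884, 5717 and 4989, so that all eKO libraries were above all controls. Its log2 fold change was 0.62 (SE 0.085, limma adjusted p 0.000276). Jund was at 96.7, 113 and 143 against 150.1, 98.7 and 121 with overlap, and the log2 difference was 0.07 (SE 0.26, adjusted p 0.885 by limma).

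Since Jun fell and Junb rose, the Junb share of the Jun family went from 60.8 to 62.6% in control HFSC to 76.7 to 80.7% in eKO HFSC, per length. The ratio of Junb to Jun was 1.64 to 1.84 in the control libraries and 3.57 to 4.89 in the eKO libraries, whereas it was 1.55 to 2.13 and 1.36 to 1.72 in skin. This ratio was chosen after the values of both genes were seen and is a description. Junb overlaps an exon of Prdx2, a peroxidase gene on the opposite strand, and whether counting used strand is not stated. Prdx2 stood at 18.0 to 21.0 CPM in control HFSC and 37.8 to 46.2 in eKO HFSC, against 507 to 546 and 711 to 827 for Junb. Jun overlaps the antisense gene Junos, which stood at 18.3 to 20.2 and 17.0 to 22.1.

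Ier2 was at 2247, 2411 and 2554 in control HFSC and at 5243, 3732 and 3958 in eKO HFSC. The eKO libraries were all above the controls, replicate 1 the highest. Its log2 difference of 0.83 (SE 0.12, adjusted p 0.00037 by limma) passed. Egr1 was at 3731, 3521 and 3979 against 4138, 4649 and 4011. The libraries did not overlap, by a margin from 3979 to 4011, and the log2 fold change of 0.19 (SE 0.087) did not pass (limma adjusted p 0.157). Atf3 was at 142, 155 and 128 against 161, 144 and 178, which overlapped, with a log2 difference of 0.18 (SE 0.21, adjusted p 0.599 by limma).

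Jun, Junb and Ier2 stayed called when any 1 HFSC library was left out, with limma adjusted p of at most 0.019, 0.00386 and 0.00366. The 4 HFSC calls were the same genes with edgeR and with DESeq2.

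**Figure D4:**
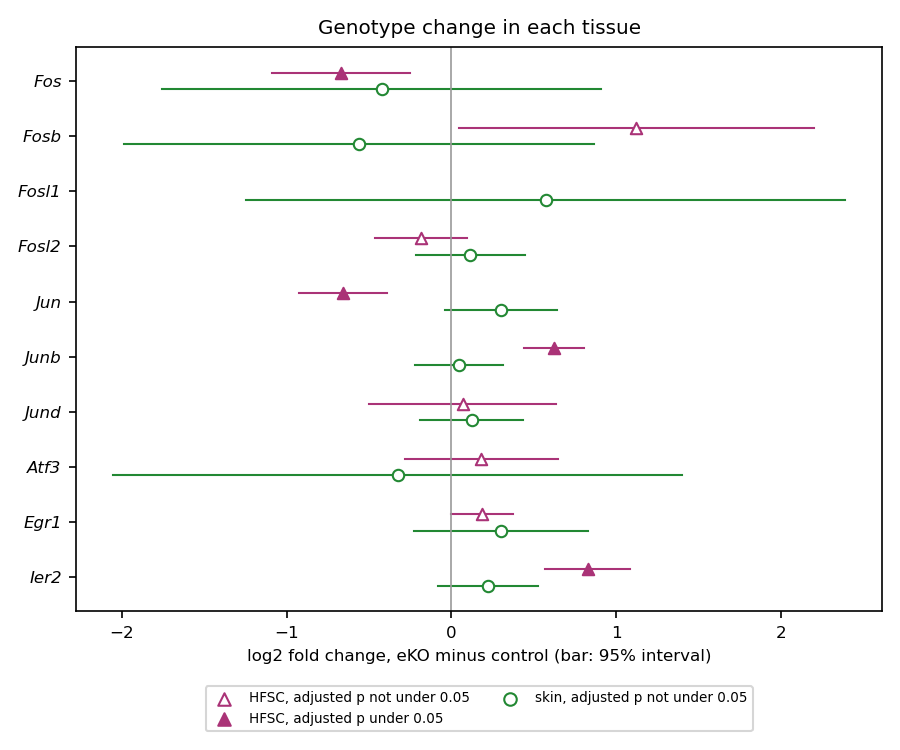
Log2 fold change of eKO minus control for each gene (triangles HFSC, circles skin) with its 95% interval from limma, filled where the adjusted p was under 0.05. Only Fos, Jun, Junb and Ier2 in HFSC are filled, and all 10 skin intervals span 0.

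In whole skin, none of the 10 members was called by limma, and 0 had an unadjusted limma p under 0.05. With edgeR and with DESeq2, 0 of 10 were called. The background was also low, at 0.374% of 16589 tested genes (0.229% higher, 0.145% lower). An unadjusted limma p under 0.05 was held by 2348 of them, and edgeR called 54 and DESeq2 656. No member's libraries separated by genotype, against 4.18% of all tested genes. The lowest unadjusted limma p was 0.0762, for Jun, at 2559, 2513, 2340.2, 1745 and 1970.3 in controls and 2356, 2094, 2974, 3069 and 3279 in eKO. The eKO libraries included the 3 highest, and the log2 fold change of 0.30 had a 95% interval from -0.04 to 0.64.

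Fos in skin ran from 349 to 4237 in the controls and from 444 to 1141 in eKO. Control replicates 1 and 2 (4237 and 1617) stood above the other 8 libraries, and the eKO range lay inside the control range. The log2 fold change was -0.42 (SE 0.60) and turned to 0.12 without control replicate 1. Fosb, from 111 to 1680.1 against 198 to 508, had a log2 fold change of -0.56 (SE 0.65). Junb was at 2383 to 3375 against 2395 to 3214 (log2 fold change 0.05, SE 0.12), and Ier2 at 683 to 1053 against 819 to 1139 (0.22, SE 0.14). The groups overlapped for both.

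Atf3 in skin had the widest interval after Fosl1: the controls ran from 307 to 1846 and eKO from 169 to 3745, the highest value in eKO replicate 5. The log2 fold change was -0.33 (SE 0.78), though the eKO mean was the higher (984 against 752). Fosl1 ran from 7.60 to 199 against 35.3 to 95.5 (0.57, SE 0.83), where edgeR and DESeq2 gave -0.33. Fosl2 (0.11, SE 0.15), Jund (0.12, SE 0.14) and Egr1 (0.30, SE 0.24) also overlapped. The hair matrix and shaft markers summed to between 33.2 and 13504 CPM among control skin libraries, and with that level as a covariate 0 of 10 members were called.

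The genotype effect was then compared between tissues, in a limma contrast of the HFSC change minus the skin change. Jun was the only 1 of 9 members called, against 5.62% of 13227 genes (3.44% higher, 2.18% lower): the difference was -0.96 (SE 0.23, limma adjusted p 0.023), from a fall in HFSC beside 0.30 in skin. Without HFSC control replicate 1, HFSC eKO replicate 1 or HFSC eKO replicate 3 its adjusted p was 0.0679, 0.056 or 0.0593. Junb (0.58, adjusted p 0.0692) and Ier2 (0.61, adjusted p 0.110) did not pass by limma, although both passed in HFSC and not in skin. Junb passed without skin control replicate 5 (limma adjusted p 0.0495). Fos differed by -0.25 (SE 0.81, limma adjusted p 0.901), with an interval from -1.97 to 1.47.

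Other early-response genes also moved both ways in HFSC. Of 34 tested, 12 rose and 6 fell (limma, adjusted p under 0.05), against 10.7% higher and 8.74% lower among all tested genes. Their median log2 fold change was 0.37 against -0.03 over all genes. Arc, a gene best known from neurons, rose most (log2 fold change 3.26, SE 0.60, limma adjusted p 0.00215), from 4.00 to 22.1 up to 70.5 to 206. Cebpb, a basic leucine zipper factor, rose by 2.39 (SE 0.65, adjusted p 0.0222 by limma) from 6.43 ± 2.51 (SD, n = 3) to 42.1 ± 28.5. Its controls lay below the filter for testing, so it was tested only through the eKO libraries and could only be called higher. The lowest Arc control, at 4.00, was also below this filter. Both genes are counted among the 12 that rose. Nfkbiz, a nuclear regulator of NF-κB, rose by 1.22 (SE 0.19, limma adjusted p 0.000634). Sgk1, a serum-induced kinase, rose by 1.06 (SE 0.11, limma adjusted p 2.83e-05). The gene that fell most was Ccn1, from 2449 to 2548 down to 865 to 1092 (log2 fold change -1.31, SE 0.11, limma adjusted p 5.14e-06).

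Dusp1, a phosphatase of MAP kinases, fell by 0.80 (SE 0.091, limma adjusted p 6.36e-05), Per1, a clock gene that responds to glucocorticoid and cyclic AMP, by 0.66 (SE 0.18, limma adjusted p 0.0231), and Ccn2 by 0.45 (SE 0.13, limma adjusted p 0.027). Leaving out control replicate 1 reduced the list to 8 higher and 2 lower, and leaving out control replicate 2 to 8 and 3. Leaving out eKO replicate 3 gave 9 and 3. Cebpb was not called without control replicate 1 or 2 or eKO replicate 1, Per1 without control replicate 1 or 3 or eKO replicate 3, and Ccn2 without control replicate 1 or 2 or eKO replicate 1 or 3. In skin 0 of 35 were called by limma and by edgeR, 8 had an unadjusted limma p under 0.05, and DESeq2 called 4. Over all 16589 genes tested in skin, 2348 had an unadjusted limma p under 0.05, and DESeq2 called 656. The difference between tissues was called by limma for Nfkbiz alone (1.24, adjusted p 0.0309), and that call was lost on leaving out any of 8 of the 16 libraries.

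**Figure D5:**
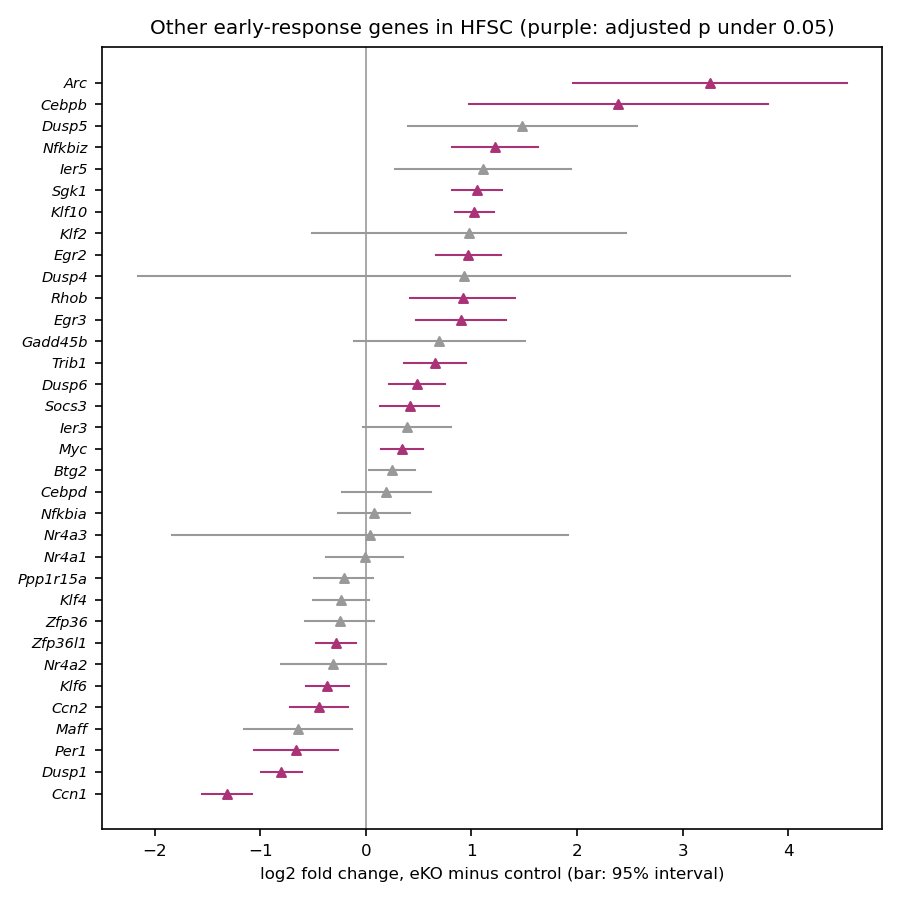
Log2 fold change of eKO minus control in HFSC of the 34 tested early-response genes outside the 10 members, with 95% intervals from limma, purple where the adjusted p was under 0.05. Arc (3.26) and Ccn1 (-1.31) are at the ends, with 12 genes called higher and 6 lower.

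Partners and upstream regulators of AP-1 were examined next. Among the partner genes, Mafk, a small Maf protein, fell by 0.66 (SE 0.15, limma adjusted p 0.008) in HFSC, a call lost without control replicate 2. In skin 0 of 16 were called by limma, edgeR or DESeq2. An unadjusted limma p under 0.05 was held by 1 of them, against 2348 of all 16589 tested genes. Of 19 tested kinases and factors upstream of immediate early genes, 1 was called in HFSC by limma, against 19.4% of all tested genes: Mrtfa, a coactivator of serum response factor. It fell by 0.49 (SE 0.11, limma adjusted p 0.0097), a call lost without control replicate 1. Srf, the serum response factor gene, was at 101 ± 6.72 (SD, n = 3) in control HFSC and 52.2 ± 16.2 in eKO HFSC, just outside the threshold (limma log2 fold change -0.99, SE 0.33, adjusted p 0.0507). It passed with DESeq2 (adjusted p 0.048), and by limma with pseudocount 5 (adjusted p 0.0475), library-size scaling (0.0373) or eKO replicate 3 left out (0.0426), each giving 2 of 19. In skin 0 of 19 were called by limma and by edgeR, 2 had an unadjusted limma p under 0.05, and DESeq2 called 2. Of all 16589 tested genes, 2348 had an unadjusted limma p under 0.05, and DESeq2 called 656.

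The tissue difference was called for 3 of these 19 genes, against 5.62% of all genes tested: Srf (-1.07, limma adjusted p 0.0133), Elk4, an ETS partner of Srf (2.04, limma adjusted p 0.0173), and Mrtfa (-0.58, limma adjusted p 0.0488). With edgeR and with pseudocount 5 in limma, 2 of 19 were called, Mrtfa having an adjusted p of 0.0585 and 0.0516. In HFSC alone Elk4 was not called (log2 fold change 0.73, limma adjusted p 0.325). Srf was called for the tissue difference with every library left out in turn. The tissue difference of Elk4 was not called without HFSC control replicate 2. That of Mrtfa was called only without skin control replicate 3, skin control replicate 4, skin eKO replicate 4 or HFSC eKO replicate 2.

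Genes known as AP-1 targets in keratinocytes rose where called. Of 10 tested in HFSC, 6 rose and 0 fell by limma (7 at an unadjusted p under 0.05, and 6 and 0 with edgeR and with DESeq2), against 10.7% higher and 8.74% lower among all tested genes. Over all 13784 genes tested in HFSC, 4524 had an unadjusted limma p under 0.05. The median log2 fold change of the 10 target genes was 1.17. Krt16, a keratin of wounded and hyperproliferative epidermis, rose by 3.79 (SE 0.41, limma adjusted p 4.36e-05) and Sprr1a, a cornified envelope precursor, by 3.40 (SE 0.31, limma adjusted p 1.03e-05). Ivl, another envelope precursor and also 1 of the 6 suprabasal markers, rose by 1.36 (SE 0.28, limma adjusted p 0.00516), and Hbegf, a ligand of the EGF receptor, by 1.20 (SE 0.31, limma adjusted p 0.0166). The Hbegf call was lost without control replicate 2 or eKO replicate 3. The suprabasal marker sum rose in the same libraries, as given above. In skin 0 of 18 were called by limma and by edgeR, 6 had an unadjusted limma p under 0.05, and DESeq2 called 1. Of all 16589 genes tested there, 2348 had an unadjusted limma p under 0.05, and DESeq2 called 656.

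Of 14 heat-shock and chaperone genes in HFSC, 3 rose and 0 fell by limma, edgeR and DESeq2, with 4 at an unadjusted limma p under 0.05. Among all 13784 tested genes limma called 10.7% higher and 8.74% lower, and 4524 had an unadjusted limma p under 0.05. The 3 genes were Hspa5, a chaperone of the endoplasmic reticulum (0.81, SE 0.081, limma adjusted p 2.14e-05), Hsp90ab1 (0.76, SE 0.12, limma adjusted p 0.000814) and Dnajb1 (0.45, SE 0.087, limma adjusted p 0.00311). The summed level of the 14 genes was 1896 to 2032 CPM in control HFSC and 2653 to 2931 in eKO HFSC, with no overlap. Most of the control sum came from the same 3 genes, with means of 524 (Dnajb1), 506 (Hsp90ab1) and 483 CPM (Hspa5). The median log2 fold change of the 14 genes was 0.15. In skin 0 of 14 were called by limma, edgeR and DESeq2. An unadjusted limma p under 0.05 was held by 1 of them, against 2348 of all 16589 genes tested there.

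Across the 10 skin libraries, Fos was not related to another member after adjustment over 9 relations. Fosb came nearest among the positive ones, with Pearson r 0.695 (permutation p 0.0269, adjusted 0.182) and Spearman rho 0.515 (permutation p 0.135, adjusted 0.577). With skin control replicates 1 and 2 left out, whose Fos lay farthest from the median, r was 0.141. Within genotypes r was 0.649 over the 5 control and 0.964 over the 5 eKO libraries, too few for a test. Fosl2 went the other way, with r -0.646 (permutation p 0.0405, adjusted 0.182) and rho -0.818 (permutation p 0.00579, adjusted 0.0521), and r was -0.732 without the same libraries. As deviations from the genotype means, r was 0.679 for Fosb and -0.627 for Fosl2. In HFSC the libraries fall into 2 genotype groups of 3, and no relation was computed.

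By likeness over the same 10 libraries and 16579 genes, the 5 genes closest to Fos were Btrc (r 0.968), Rtn4r (0.955), Srp54c (0.944), Iba57 (0.917) and Mlycd (0.917). Those closest to Jun were Sel1l (0.928), Map3k8 (0.911), Zmiz1 (0.896), Diaph2 (0.892) and Gsdmc (0.892). For Jund they were Gm12504 (0.964), Gnat1 (0.903), Ppp2r2c (0.886), Pp2d1 (0.878) and Sema4b (0.875). These are the highest of many values over few libraries and are a description.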

How the data were processed

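The authors deposited 1 table per tissue with 1 signal column per library: read counts per gene scaled by 1 factor per library, as the values themselves show. Dividing each column by what 1 read is worth in it returned whole reads, within a tolerance of 0.01, for 100% of values. Per the submitters' processing notes the build was GRCm39 for both tissues, and featureCounts and DESeq2 are named for skin. Strand and shared reads are not given in the sources used here. No 2 replicates agreed within sampling noise (chi-square per gene at least 5.65).

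Each tissue was fitted alone on log2(value + 1) with limma 3.58.1 (trended), on genes that reached a value of 10 in 5 or more skin or 3 or more HFSC libraries, with Benjamini-Hochberg adjustment over all tested genes and a threshold of 0.05. Tissue differences used 1 contrast over all 16 libraries. Gene lengths are exon unions and overlaps are from GENCODE M21; names matched 94.1% of skin and 91.4% of HFSC rows. edgeR 4.0.16 and DESeq2 1.42.0 on recovered reads, other scalings, pseudocount 5, no filter, a replicate block and leaving out each library were alternatives. The limma step was tested on simulated counts with 1 dispersion for all genes. At 2-fold it recovered 92.9% of changed genes in skin (16490 genes) and 70% in HFSC (13581 genes), and at 4-fold 100% in both. These rates do not apply to any gene that spreads more widely than the simulated counts. In skin such genes include Fos, Fosb, Fosl1 and Atf3. Egr1 among skin controls (mean 2182, SD 840 normalised read counts) and Fosb among HFSC controls (mean 75.1, SD 54.9) also varied widely. The rates should not be read as theirs either.

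Named were all 10 members, up to 4 called genes per list and direction, and the 5 genes most like Fos, Jun and Jund; names outside this rule were chosen after their values were seen. Members and lists were chosen with earlier results of these data known. A result for 1 listed gene is not reported here.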

Additional observations from a re-analysis of the deposited data

Results flagged for a closer look

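Atf3 in skin eKO replicate 5 stood at 3745 normalised read counts, while the other 4 eKO libraries held 169 to 375. The gap to its nearest neighbour took up 0.943 of the range of the group, above the critical value of 0.71 for 5 libraries. It was 1 of 20 groups examined in this way, and chance alone puts about 1 in 20 past this critical value. How often chance reaches 0.943 was not computed.

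Jun differed in its genotype effect between the tissues, with an HFSC change minus skin change of -0.96 on the log2 scale (limma adjusted p 0.023).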

How the results depend on the processing

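The 4 calls in HFSC and the 0 calls in skin held under every scaling, tool, pseudocount and filter run, and 3 to 4 and 0 were called on leaving out 1 library. HFSC libraries with the same replicate number shared no pattern over all genes (correlations of deviations -0.060, -0.018 and -0.026). These values cannot exclude a pairing with a small effect. With the replicate block the same 4 genes were called. The count of members differing between tissues ran from 0 to 2 on leaving out 1 library, and the relations of Fos passing adjustment from 0 to 1 (Fosb, without skin control replicate 3). Members higher in control HFSC numbered 2 with TMM, 1 with deposited values and 1 at 4-fold, and the lower members 1 by reference genes and 2 at 4-fold.

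Values that changed sign had no call on either side, and the cause was not tested. In skin they were Fosl1 (-0.33 with edgeR and with DESeq2), Atf3 (0.38 with edgeR and 0.39 with DESeq2) and, without the libraries lacking Y-linked reads, Fosl2 (-0.018) and Junb (-0.032). On leaving out 1 library, the skin value ran from -1.07 to 0.083 for Atf3, -0.78 to 0.12 for Fos and -0.0086 to 0.12 for Junb, and the HFSC value from -0.082 to 0.22 for Jund. Between tissues, edgeR gave 0.39 for Fos and -0.17 for Atf3, and leaving out 1 library gave -0.79 to 0.11 for Fos, -0.30 to 0.022 for Egr1 and -0.21 to 0.096 for Jund.

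Over all genes, 2673 were called in HFSC, and 1540 and 1560.0 without control replicates 1 and 2. In skin 62 were called, against 656 with DESeq2, 149 with the hair matrix covariate, 37 with no filter, 32 with library-size scaling, 0 without the libraries lacking Y-linked reads and 11 to 59 on leaving out 1 library. Between tissues 743 were called, and 452 without HFSC control replicate 1. Depth limits Fosl1 in HFSC, at 17 reads or fewer.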
